A study of Homo sapiens with 6 samples.

Results

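The genes of mitosis were followed in HepG2 cells, an established human liver cancer line, exposed for 24 h to sorafenib or to DMSO. The 53 genes were taken by name and cover the cyclins and kinases of mitotic entry, the spindle checkpoint, the centromere and kinetochore, the mitotic kinesins and the machinery of spindle assembly and cell division. All 53 had at least 1 probe above background on at least 3 of the 6 arrays, among 11542 genes tested in all, and 78 of their 82 probes passed that filter. The other 4 probes were second or further probes of BUB3, CDCA7, INCENP and NUF2. Every member's chosen probe was above background on all 6 arrays, so none entered through a single group.

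The sorafenib group held 3 arrays of cells given the drug at the labelled dose of 3 mM, a unit that the files cannot check. The control group held 3 arrays of cells given DMSO. Sorafenib, a liver cancer drug, blocks RAF kinases and several receptor tyrosine kinases. The labels leave unsaid whether replicates came from separate cultures, so the p-values reflect only array-to-array spread, which may be technical. Mean intensity was 832 to 1050 on the sorafenib arrays and 739 to 974 on the control arrays. All 7 hepatocyte markers examined, ALB and AFP among them, were above background on all 6 arrays, and their summed intensity was 169737 to 202435 on the sorafenib arrays and 212660 to 226998 on the control arrays. None of the 5 fibroblast or 4 endothelial markers was above background on all 6. Of the leukocyte markers, CD3E and PTPRC, which defines the lineage, were above background on no array. CD14 and LYZ were above background on all 6, and the summed intensity of that list was 12611 to 16046 on the sorafenib arrays and 6750 to 9843 on the control arrays. Their part in the results was not tested.

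In a dividing cell, cyclin B with its kinase CDK1 drives entry into mitosis, and CDC25 phosphatases release that kinase from inhibition. Polo-like and Aurora kinases then build the spindle, kinetochores couple chromosomes to its microtubules, and the spindle checkpoint holds back the anaphase-promoting complex, APC/C, until every chromosome is attached. Most of these genes are transcribed late in the cell cycle, under B-MYB and FOXM1, and are kept silent in resting cells by the DREAM complex. DREAM and B-MYB reach their promoters through a short element called the CHR, which usually lies close to the start of transcription, next to CCAAT boxes that bind the factor NF-Y.

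With sorafenib, 20 of the 53 mitosis genes were higher and 0 were lower (limma, adjusted p under 0.05 over all 11542 genes), where 11.0% of all genes tested were higher and 14.3% lower, or 25.3% in either direction. The changes were small. The median difference over the members was 0.28 on the log2 scale, against 0.00 over all genes, and the range was -0.14 to 0.81. No member changed by as much as 1. The fitted difference was above 0 for 49 of the 53 members, where it was above 0 for 50.2% of all genes. For 40 members all 3 sorafenib arrays lay above all 3 control arrays, where 21.6% of all genes did so, and for 0 members they lay below, where 23.3% of all genes did. An unadjusted p under 0.05 in the limma fit was reached by 35 of the 53 members and by 4504 of the 11542 genes. RNA was taken from whole cultures, so a larger share of cells near mitosis and more RNA of these genes per cell cannot be told apart.

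**Figure D1:**
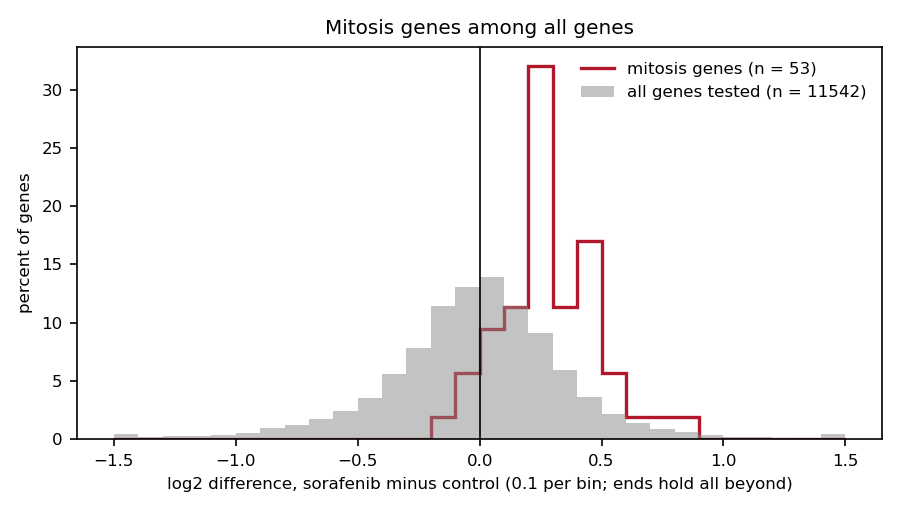
Share of genes (percent, vertical axis) by log2 difference of sorafenib minus control (horizontal axis, bins of 0.1), for the 53 mitosis genes (red line) and all 11542 genes tested (grey). The mitosis genes lie mostly between 0 and 0.6 around a median of 0.28, inside the spread of all genes and right of its centre at 0.00.

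The count changed with single arrays and settings. It was 14, 10 and 13 without sorafenib replicate 1, 2 or 3, and 10, 11 and 9 without control replicate 1, 2 or 3. Scaling by medians in place of quantile normalization left 6. It was 33 without background correction and 35 with a variance model that follows the expression level. Calls over all genes moved too. The share of all genes higher was 5.64% to 8.51% when 1 array was left out and 5.55% with median scaling. It was 13.4% without background correction and 13.8% with that variance model. No member was lower in any of these fits. Of the 20 members that passed, 8 also passed with each of the 6 arrays left out in turn, namely CDC25A, PLK1, MKI67, CENPA, CENPE, SPC25, CDCA3 and CDCA4. The matching share over all genes was not counted, so whether members kept their calls more often than other genes is not known. The arrays numbered 3 differed most. Sorafenib replicate 3 was the highest of the 6 arrays for 40 of the 53 members, and control replicate 3 was the lowest for 33. The median difference over the members was 0.18 between the arrays numbered 1, 0.20 between those numbered 2 and 0.45 between those numbered 3. In all 3 of these pairs 43 of the 53 members lay above 0 and 1, CDC25C, lay below, where 31.5% of all genes lay above and 32.5% below. Without replicate 3 of both groups, a fit added after the values were seen, 9 members were higher, 0 were lower and the median was 0.19. In that fit 7.53% of all genes were higher.

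**Figure D2:**
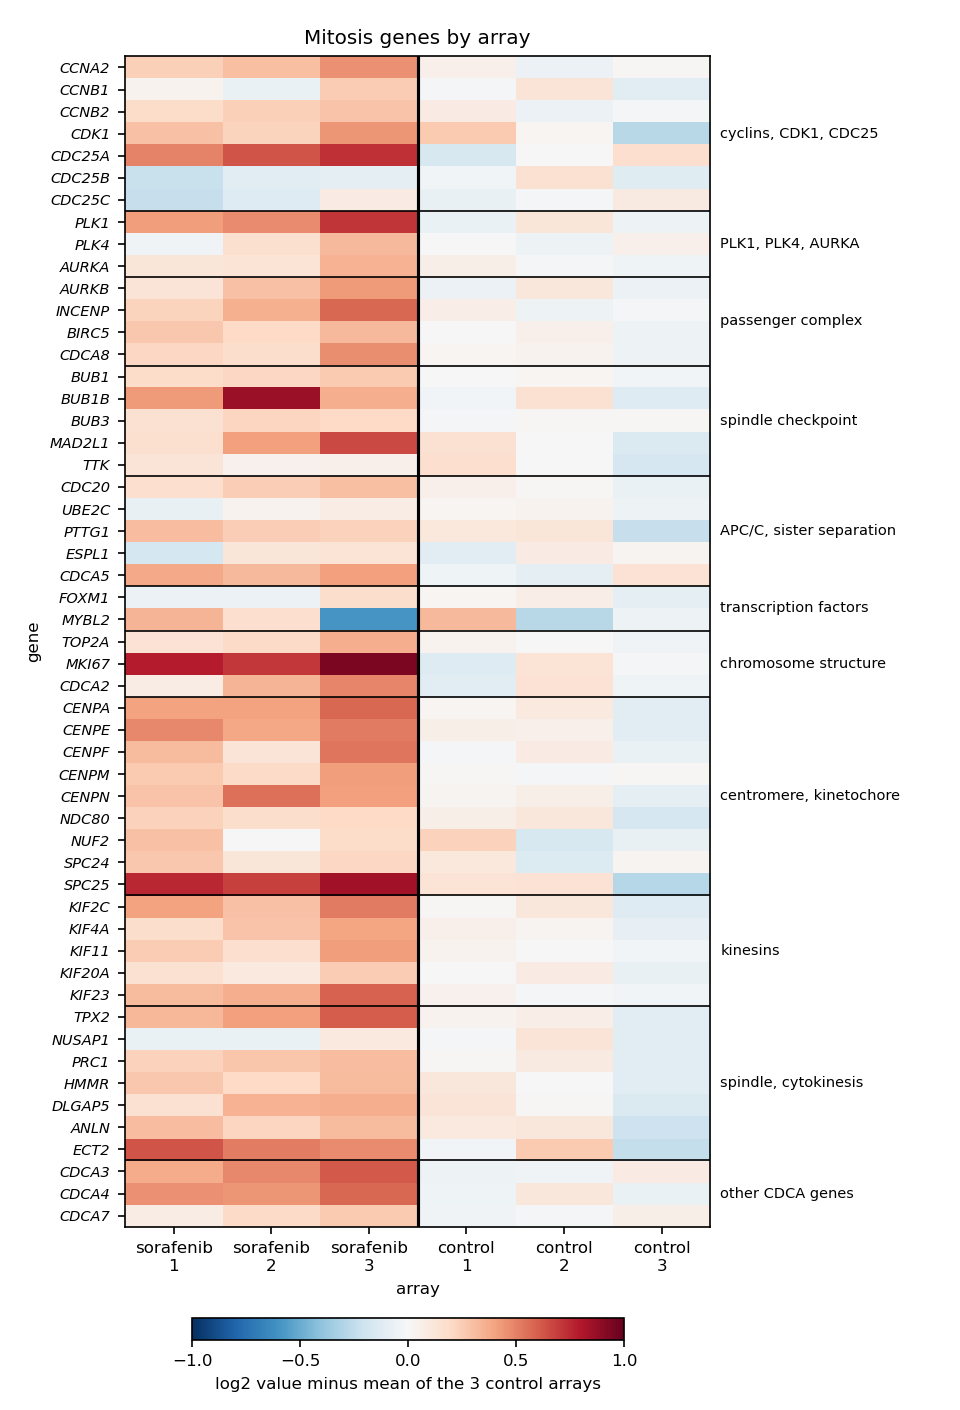
Each row is 1 of the 53 mitosis genes, grouped by role, and each column 1 array. Colour gives the log2 value minus the gene's mean over the 3 control arrays, from -1 (blue) to 1 (red). Red fills most of the sorafenib columns. Averaged over the 3 sorafenib arrays it is deepest for MKI67, SPC25 and CDC25A, and sorafenib replicate 3 is the highest array for 40 genes.

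The promoters of the members share letters that the choice of members did not use. RefSeq promoter windows of GRCh38.p14, from 250 bases before to 50 after the start, were matched by symbol for 44 of the 53 members. AURKA, BIRC5, BUB3, CDCA2, CENPM, FOXM1, TPX2, TTK and UBE2C had no entry. TTTGAA, the most common CHR, was found on either strand in 30 of the 44 genes, which is 68.2%, and in 15.2% of all 35116 windows or 14.1% of the 9280 tested genes with a window. CCAAT was found in 35 of the 44, or 79.5%, against 43.7% of those tested genes and 34.6% of all windows. TTTGAA or TTCGAA, a rarer CHR, stood together with CCAAT in 1 window for 27 of the 44 members, or 61.4%, against 6.75% of those tested genes and 6.38% of all windows. Of the 45 matches of TTTGAA in members' windows, 22 lay in the last 60 bases before the start, which is 48.9%, against 17.3% of such matches in all windows. Windows of 1 gene with several starts overlap, so matches can be counted again. TTTGAA was found in 12 of the 17 matched members that were higher with sorafenib, or 70.6%, and in 18 of the 27 that did not pass, or 66.7%. The letters TTCCCGC, one form of the E2F site, were found in 6 of those 17 and in 3 of those 27, and in 12.3% of the tested genes with a window. The forms TTGGCGC and TTCGCGC were found in 6 and 3 of the 44 members or 13.6% and 6.82%, against 6.01% and 4.80% of those tested genes. TTGGCGC was found in 3 of those 17 and 3 of those 27, and TTCGCGC in 0 of those 17 and 3 of those 27. At least 1 of these forms was found in 8 of those 17 and 8 of those 27, and in 20.9% of those tested genes. A match is a run of letters and not a measured binding site.

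The stretches of 250 bases before the start are shown for the 4 members with the largest changes among those passing with an entry. PLK1 and CCNB1, a kinase and a cyclin of mitotic entry, are also shown and were chosen after their values were seen. Capitals mark CCAAT or its complement ATTGG, and TTTGAA. Coordinates are of GRCh38.p14, and each sequence is written along its gene's strand.
MKI67, chr10:128126424-128126673, minus strand: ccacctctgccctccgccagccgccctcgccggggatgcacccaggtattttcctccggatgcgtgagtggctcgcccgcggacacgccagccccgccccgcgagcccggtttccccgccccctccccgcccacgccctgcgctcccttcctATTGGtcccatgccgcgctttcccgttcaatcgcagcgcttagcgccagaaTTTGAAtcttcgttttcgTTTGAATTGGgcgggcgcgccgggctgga
SPC25, chr2:168890431-168890680, minus strand: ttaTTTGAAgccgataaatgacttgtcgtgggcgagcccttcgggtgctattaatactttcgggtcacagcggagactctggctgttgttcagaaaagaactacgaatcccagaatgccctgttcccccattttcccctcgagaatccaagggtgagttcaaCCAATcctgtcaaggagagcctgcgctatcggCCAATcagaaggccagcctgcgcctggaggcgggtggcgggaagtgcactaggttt
CDC25A, chr3:48188418-48188667, minus strand: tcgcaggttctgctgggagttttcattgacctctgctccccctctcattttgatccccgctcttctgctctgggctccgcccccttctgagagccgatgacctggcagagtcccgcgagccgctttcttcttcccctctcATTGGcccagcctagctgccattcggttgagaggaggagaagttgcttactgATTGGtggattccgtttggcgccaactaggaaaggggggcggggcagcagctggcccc
BUB1B, chr15:40160819-40161068, plus strand: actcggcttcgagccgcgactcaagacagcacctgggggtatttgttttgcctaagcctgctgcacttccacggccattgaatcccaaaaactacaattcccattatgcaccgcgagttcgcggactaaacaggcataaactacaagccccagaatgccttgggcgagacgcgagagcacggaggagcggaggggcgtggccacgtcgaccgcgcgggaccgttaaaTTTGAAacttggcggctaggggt
PLK1, chr16:23678639-23678888, plus strand: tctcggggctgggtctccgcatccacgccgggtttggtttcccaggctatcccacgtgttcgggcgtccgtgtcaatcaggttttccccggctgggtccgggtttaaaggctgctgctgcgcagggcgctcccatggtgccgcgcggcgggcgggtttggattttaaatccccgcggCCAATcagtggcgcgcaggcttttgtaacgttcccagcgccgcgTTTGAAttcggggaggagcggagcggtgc
CCNB1, chr5:69166900-69167149, plus strand: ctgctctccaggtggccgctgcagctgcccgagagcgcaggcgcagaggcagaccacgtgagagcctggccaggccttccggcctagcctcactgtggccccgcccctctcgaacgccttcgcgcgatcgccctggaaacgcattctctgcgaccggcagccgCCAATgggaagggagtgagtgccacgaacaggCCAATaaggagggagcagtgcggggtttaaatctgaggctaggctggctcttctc
The MKI67 stretch held TTTGAA at both 47 and 29 bases before the start, the nearer of which overlaps an ATTGG by 1 base. PLK1 and BUB1B had it at 29 and 23 bases before the start, and the BUB1B stretch held no CCAAT. The SPC25 stretch held it far upstream, and a further match runs across the start itself and is therefore not shown in full. CDC25A and CCNB1 had CCAAT boxes and no TTTGAA in these windows, although CDC25A passed the test and CCNB1 did not. CDK1, whose stretch is not shown, did not pass on its brightest probe, and its windows held TTTGAA.

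Among the cyclins, CDK1 and its activating phosphatases, 2 of 7 were higher and 0 lower. For this group and those below, the shares over all genes were 11.0% higher, 14.3% lower and 21.6% with all sorafenib arrays above all control arrays. CDC25A, a phosphatase that acts both at entry into S phase and at entry into mitosis, had log2 values of 10.81, 10.93 and 11.04 on the sorafenib arrays, against 10.15, 10.31 and 10.47 on the control arrays. Every sorafenib array lay above every control array. Its log2 value rose by 0.62 ± 0.11 (SE, n = 3 in each group; limma, adjusted p = 0.00939), or 1.53-fold. Its other probe differed by 0.74. CCNA2, which encodes cyclin A, had 12.90, 12.97 and 13.12 on the sorafenib arrays, against 12.71, 12.61 and 12.67 on the control arrays, again without overlap. It rose by 0.33 ± 0.08 (limma, adjusted p = 0.0303), a call lost when any array other than sorafenib replicate 1 was left out (adjusted p = 0.0571 to 0.0975), when arrays were scaled by medians (0.144) and when dim probes were kept (0.0508).

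The brightest probes of the mitotic cyclins B and their kinase did not pass. CCNB1, the main cyclin B, had 10.001, 9.90 and 10.22 on the sorafenib arrays, against 9.95, 10.10 and 9.85 on the control arrays, so the groups overlapped. Its difference was 0.07 with a 95% interval of -0.19 to 0.34 (limma, adjusted p = 0.663), and it was below 0 without sorafenib replicate 3 (-0.02). CCNB2 differed by 0.23 (adjusted p = 0.0615) with no overlap between groups. CDK1 had 11.25, 11.18 and 11.39 with sorafenib, against 11.21, 10.97 and 10.67 in control, where the control arrays spread widely. Its difference was 0.32, with an interval of -0.02 to 0.66 (adjusted p = 0.151), and without control replicate 3 the difference was 0.18. Its other probe passed alone (0.41, adjusted p = 0.0410 over all probes), and so did the mean of both (0.36, adjusted p = 0.0281). The sister phosphatases of CDC25A did not follow it. CDC25B differed by -0.14, with an interval of -0.36 to 0.08, and CDC25C by -0.09, with an interval of -0.33 to 0.15. The interval of CDC25A, 0.36 to 0.88, lay above both, and all 3 probes of CDC25C were between -0.19 and -0.03. The difference between these genes was not tested.

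Of the polo-like kinases and Aurora A, 1 of 3 was higher. PLK1, which acts from entry into mitosis through cytokinesis, had 10.95, 11.00 and 11.24 on the sorafenib arrays, against 10.46, 10.64 and 10.48 on the control arrays. The groups lay apart by more than the spread within either. It rose by 0.54 ± 0.10 (SE, n = 3; limma, adjusted p = 0.0129), or 1.45-fold. PLK4, which starts centriole duplication, differed by 0.15 with an interval of -0.10 to 0.39, and its groups overlapped. AURKA, the Aurora kinase of the spindle poles, had 13.23, 13.25 and 13.46 with sorafenib, against 13.17, 13.09 and 13.07 in control. Its groups did not overlap, yet the difference of 0.20 did not pass (adjusted p = 0.135), and its second probe differed by 0.24.

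The chromosomal passenger complex corrects faulty attachments at the centromere and later guides cytokinesis. All 4 of its genes had every sorafenib array above every control array, and 2 passed. INCENP, its scaffold, had 8.96, 9.09 and 9.31 on the sorafenib arrays, against 8.80, 8.68 and 8.72 on the control arrays, and rose by 0.38 ± 0.10 (SE, n = 3; limma, adjusted p = 0.0361). BIRC5, which encodes survivin, had 12.11, 12.04 and 12.16 with sorafenib, against 11.84, 11.89 and 11.79 in control. It rose by 0.26 ± 0.07 (limma, adjusted p = 0.0393). AURKB, the kinase of the complex, and CDCA8, which encodes borealin, each differed by 0.28, with adjusted p-values of 0.0837 and 0.0765. BIRC5 missed the threshold with the replicate number as a block (adjusted p = 0.0509), with the mean of its probes (adjusted p = 0.0761) and with any array left out (adjusted p = 0.0684 to 0.0972), and INCENP with any array but sorafenib replicate 1 left out (adjusted p = 0.0653 to 0.107), and both after scaling by medians (0.132 for INCENP and 0.263 for BIRC5) and with dim probes kept (0.0578 and 0.0686).

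Of the 5 spindle checkpoint genes, 1 was higher and 4 had groups that did not overlap. BUB1B, which encodes the checkpoint protein BUBR1, had 8.10, 8.53 and 8.03 on the sorafenib arrays, against 7.64, 7.82 and 7.54 on the control arrays. Sorafenib replicate 2 stood above the other two sorafenib arrays. It rose by 0.55 ± 0.15 (SE, n = 3; limma, adjusted p = 0.0379), with the largest SE among members that passed, and missed the threshold when any array other than sorafenib replicate 3 was left out (adjusted p = 0.0584 to 0.105), after scaling by medians (0.0687) and with dim probes kept (0.0578). BUB1, the kinase that recruits the checkpoint to kinetochores, had 10.33, 10.36 and 10.41 with sorafenib, against 10.16, 10.17 and 10.12 in control. The groups were tight and apart, and its difference of 0.22 had an adjusted p = 0.0531. MAD2L1, whose product MAD2 binds CDC20, differed by 0.41 with an adjusted p = 0.0804. Its sorafenib arrays ranged from 11.71 to 12.21 and its control arrays from 11.40 to 11.71, and its other probe differed by 0.69 (adjusted p = 0.0352 over all probes). BUB3, which carries the BUB kinases to kinetochores, differed by 0.19 (adjusted p = 0.0760), and 1 of its further probes by 0.44 (adjusted p = 0.0473 over all probes). With the mean of a gene's probes, MAD2L1 and BUB3 passed as well (adjusted p = 0.0211 and 0.0412), which made 3 of 5 checkpoint genes higher. TTK, the kinase that starts the signal, differed by 0.07 and overlapped, and its difference was -0.01 without control replicate 3.

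In the APC/C and sister separation group, 1 of 5 passed. CDCA5, which encodes sororin, the protector of sister cohesion, had 12.57, 12.51 and 12.59 on the sorafenib arrays, against 12.14, 12.09 and 12.33 on the control arrays. It rose by 0.37 ± 0.09 (SE, n = 3; limma, adjusted p = 0.0231), and missed the threshold when any array other than control replicate 3 was left out (adjusted p = 0.0564 to 0.0766) and after scaling by medians (0.0828). CDC20, the activator of APC/C that the checkpoint restrains, had 13.32, 13.39 and 13.45 with sorafenib, against 13.20, 13.16 and 13.09 in control. Its groups lay apart, with a difference of 0.24 and an adjusted p = 0.0591. PTTG1, which encodes securin, differed by 0.26 (adjusted p = 0.131), and control replicate 3, at 13.32, lay below the other two control arrays. UBE2C, the ubiquitin-conjugating enzyme of APC/C, had 11.08, 11.19 and 11.23 with sorafenib, against 11.17, 11.19 and 11.10 in control. Its difference was 0.01 with an interval of -0.17 to 0.19. ESPL1, which encodes separase, the protease that cleaves cohesin, differed by 0.03 with an interval of -0.23 to 0.28. The sign of both turned in some fits that left out an array.

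The transcription factors of the late cell cycle did not pass, with differences near 0 on the probe used for each gene. FOXM1 had 10.12, 10.12 and 10.36 on the sorafenib arrays, against 10.20, 10.25 and 10.09 on the control arrays. The groups overlapped on this probe. Its difference was 0.02 with an interval of -0.21 to 0.24 (limma, adjusted p = 0.906). Without sorafenib replicate 3 or control replicate 3 the difference was -0.06 and -0.03. The other, dimmer probe of FOXM1 had 9.57, 9.52 and 9.57 with sorafenib, against 9.38, 9.37 and 9.36 in control, without overlap. That probe differed by 0.18 (limma, adjusted p = 0.132 over all probes), and the mean of both by 0.10 (adjusted p = 0.371). MYBL2, which encodes B-MYB, had 7.17, 7.003 and 6.24 with sorafenib, against 7.16, 6.56 and 6.78 in control. Its SE of 0.26 was the largest of the 53 members, and its difference of -0.03 had an interval of -0.65 to 0.60. That interval held the differences of all other members except MKI67, SPC25 and CDC25A (0.81, 0.76 and 0.62). Changes of the size seen in most members were therefore not detectable for MYBL2.

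Among the genes of chromosome structure, 1 of 3 passed. MKI67, which encodes the proliferation marker Ki-67 that coats mitotic chromosomes, had 8.67, 8.59 and 8.82 on the sorafenib arrays, against 7.75, 8.02 and 7.87 on the control arrays. It had the largest change of the 53 members, 0.81 ± 0.10 (SE, n = 3; limma, adjusted p = 0.0031), or 1.76-fold with an interval of 0.57 to 1.05 on the log2 scale. It passed in all 17 alternative fits, with differences from 0.59 to 0.88. TOP2A, the topoisomerase that untangles sister chromosomes, had 13.21, 13.25 and 13.43 with sorafenib, against 13.10, 13.07 and 13.03 in control. The groups did not overlap, and its difference of 0.23 had an adjusted p = 0.0821. CDCA2, which targets a phosphatase to chromatin at the exit from mitosis, differed by 0.30 (adjusted p = 0.127), and its groups overlapped.

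Of the 9 centromere and kinetochore genes, 5 were higher and 0 lower, with a median difference of 0.33 and 8 without overlap. With the mean of a gene's probes 3 were higher. SPC25, a subunit of the NDC80 complex that grips microtubules, had 9.90, 9.83 and 9.98 on the sorafenib arrays, against 9.28, 9.29 and 8.86 on the control arrays. Control replicate 3 was the lowest by a wide margin. It rose by 0.76 ± 0.13 (SE, n = 3; limma, adjusted p = 0.00872), or 1.69-fold. Its other probe differed by 0.22, and the mean of both probes did not pass (0.49, adjusted p = 0.126). CENPE, the kinetochore motor that brings chromosomes to the spindle equator, had 10.29, 10.19 and 10.32 with sorafenib, against 9.86, 9.86 and 9.70 in control. It rose by 0.46 ± 0.08 (adjusted p = 0.00951), and its second probe differed by 0.41. CENPA, the histone H3 variant that marks centromeres, had 10.76, 10.76 and 10.93 with sorafenib, against 10.37, 10.45 and 10.24 in control. It rose by 0.46 ± 0.09 (adjusted p = 0.0131), and its second probe differed by 0.33. After scaling by medians CENPA and CENPE missed the threshold (adjusted p = 0.0516 and 0.0563), at differences of 0.50 and 0.48.

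CENPN, which reads the CENP-A nucleosome, rose by 0.42 ± 0.09 (SE, n = 3; limma, adjusted p = 0.0212), and CENPM, a further part of the inner kinetochore, by 0.29 ± 0.08 (adjusted p = 0.0439). All 3 probes of CENPM had differences above 0, at 0.29 to 0.36, and none passed when probes were tested one by one (adjusted p = 0.0691 to 0.246). CENPM missed the threshold with any array left out (adjusted p = 0.0597 to 0.119), with the mean of its probes (0.0950), with dim probes kept (0.0733) and after scaling by medians (0.182), and CENPN after scaling by medians (0.103) and without sorafenib replicate 2 or any 1 control array (adjusted p = 0.0505 to 0.0640). On the brightest probes, the partners of SPC25 in its complex differed by less and did not pass. NDC80 had 8.17, 8.11 and 8.14 with sorafenib, against 7.997, 8.05 and 7.77 in control. Its difference was 0.20, with an interval of -0.02 to 0.42. SPC24 differed by 0.20, with an interval of -0.01 to 0.41, and NUF2 by 0.16, with an interval of -0.15 to 0.46. The interval of SPC25, 0.45 to 1.07, overlapped that of NUF2, and the difference between subunits was not tested. On their other detected probes NUF2 differed by 0.34 and SPC25 by 0.22. CENPF, a large kinetochore protein that accumulates in G2, differed by 0.33 (adjusted p = 0.0810).

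All 5 mitotic kinesins had every sorafenib array above every control array, and 2 passed. KIF23, a motor of the central spindle needed for cytokinesis, had 10.38, 10.42 and 10.65 on the sorafenib arrays, against 10.10, 10.04 and 10.03 on the control arrays. It rose by 0.42 ± 0.09 (SE, n = 3; limma, adjusted p = 0.0183). KIF2C, which takes microtubules apart at centromeres, had 10.31, 10.20 and 10.43 with sorafenib, against 9.92, 10.02 and 9.78 in control. It rose by 0.41 ± 0.10 (adjusted p = 0.0248). KIF4A, a chromosome-bound motor, and KIF11, which pushes the spindle poles apart, each differed by 0.28, just short of passing (adjusted p = 0.0515 and 0.0542), and KIF11 passed with the mean of its probes (0.0371). KIF20A, a motor of late mitosis, differed by 0.17 (adjusted p = 0.177). KIF23 missed the threshold without control replicate 2 or control replicate 3 (adjusted p = 0.0600 and 0.0523) and with the mean of its probes (adjusted p = 0.0597), KIF2C without replicate 1 or 3 of either group (adjusted p = 0.0601 to 0.0648), and both after scaling by medians (adjusted p = 0.0698 and 0.0918).

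Of the 7 genes of spindle assembly and cytokinesis, 3 were higher and 0 lower. ECT2, which switches on the contractile ring, had 9.97, 9.85 and 9.81 on the sorafenib arrays, against 9.31, 9.60 and 9.10 on the control arrays. It rose by 0.54 ± 0.13 (SE, n = 3; limma, adjusted p = 0.0276). TPX2, the activator of Aurora A on spindle microtubules, had 12.35, 12.43 and 12.62 with sorafenib, against 12.05, 12.09 and 11.91 in control. It rose by 0.45 ± 0.10 (adjusted p = 0.0188), more than the 0.20 measured for AURKA itself, although the intervals of 0.21 to 0.68 and -0.00 to 0.41 overlapped. PRC1, which bundles microtubules of the central spindle, had 12.62, 12.66 and 12.70 with sorafenib, against 12.40, 12.48 and 12.28 in control, and rose by 0.27 ± 0.08 (adjusted p = 0.0465).

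HMMR, DLGAP5 and ANLN, which encode a pair of spindle proteins and the ring protein anillin, differed by 0.26, 0.29 and 0.28 with no overlap between groups and adjusted p-values of 0.0624, 0.0811 and 0.0958. The other probes of HMMR and DLGAP5 differed by 0.14 and 0.10, and their groups overlapped. With the mean of a gene's probes the adjusted p-values were 0.117 for HMMR and 0.239 for DLGAP5 (limma). NUSAP1, a spindle protein that binds microtubules, had 12.43, 12.43 and 12.59 with sorafenib, against 12.48, 12.62 and 12.39 in control. Its difference was -0.01 with an interval of -0.23 to 0.21, and 0.03 with median scaling. PRC1 missed the threshold with any array left out (adjusted p = 0.0654 to 0.115), with the replicate number as a block (adjusted p = 0.0527), with dim probes kept (0.0787) and after scaling by medians (0.248). ECT2 missed it without sorafenib replicate 1 or 2 or control replicate 1 or 3 (adjusted p = 0.0589 to 0.0774) and TPX2 without sorafenib replicate 2 or control replicate 3 (adjusted p = 0.0524 and 0.0548), and both after scaling by medians (adjusted p = 0.0539 and 0.0612).

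The remaining 3 genes carry the name of cell division cycle associated genes, and 2 of them passed in every alternative fit. CDCA4, whose product is linked to E2F-driven transcription, had 10.77, 10.75 and 10.89 on the sorafenib arrays, against 10.27, 10.42 and 10.24 on the control arrays. It rose by 0.49 ± 0.08 (SE, n = 3; limma, adjusted p = 0.00819), and its other probes differed by 0.46 and 0.52. CDCA3, which promotes entry into mitosis, had 9.28, 9.39 and 9.52 with sorafenib, against 8.86, 8.87 and 8.99 in control. It rose by 0.49 ± 0.09 (adjusted p = 0.0106). CDCA7, a chromatin protein of S phase, differed by 0.18 (adjusted p = 0.152), and its groups did not overlap. Across the whole set, 21 members had more than 1 detected probe. In 19 of these all probes differed upward, in CDC25C all differed downward, and in NUSAP1 they disagreed in sign.

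**Figure D3:**
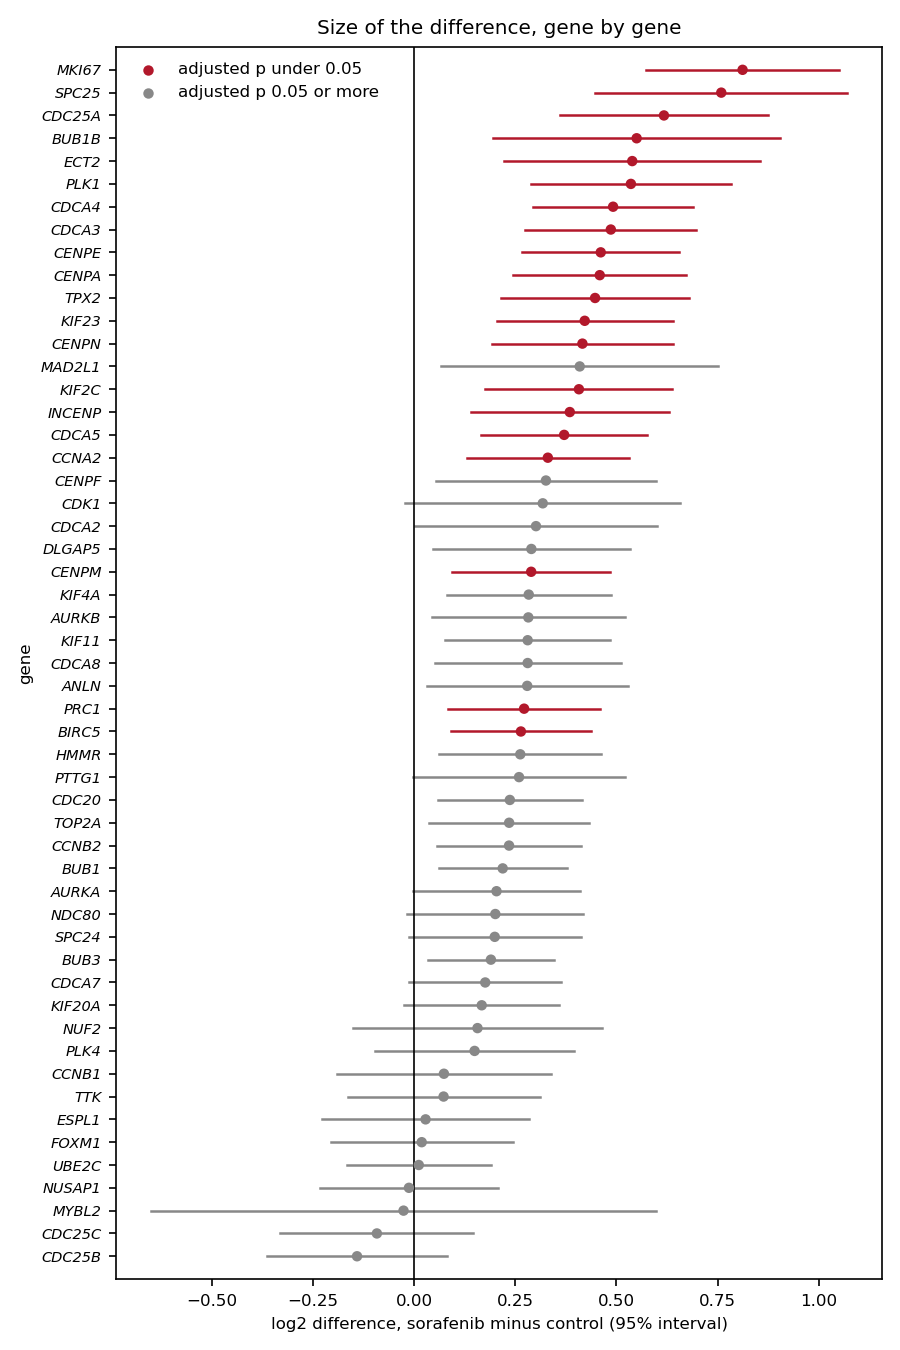
Log2 difference of sorafenib minus control (horizontal axis) with its 95% interval for each of the 53 mitosis genes, sorted by size. Red marks the 20 genes with an adjusted p under 0.05, from MKI67 at 0.81 to BIRC5 at 0.26, and the other 33 genes are grey, with CDC25B lowest at -0.14.

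**Figure D4:**
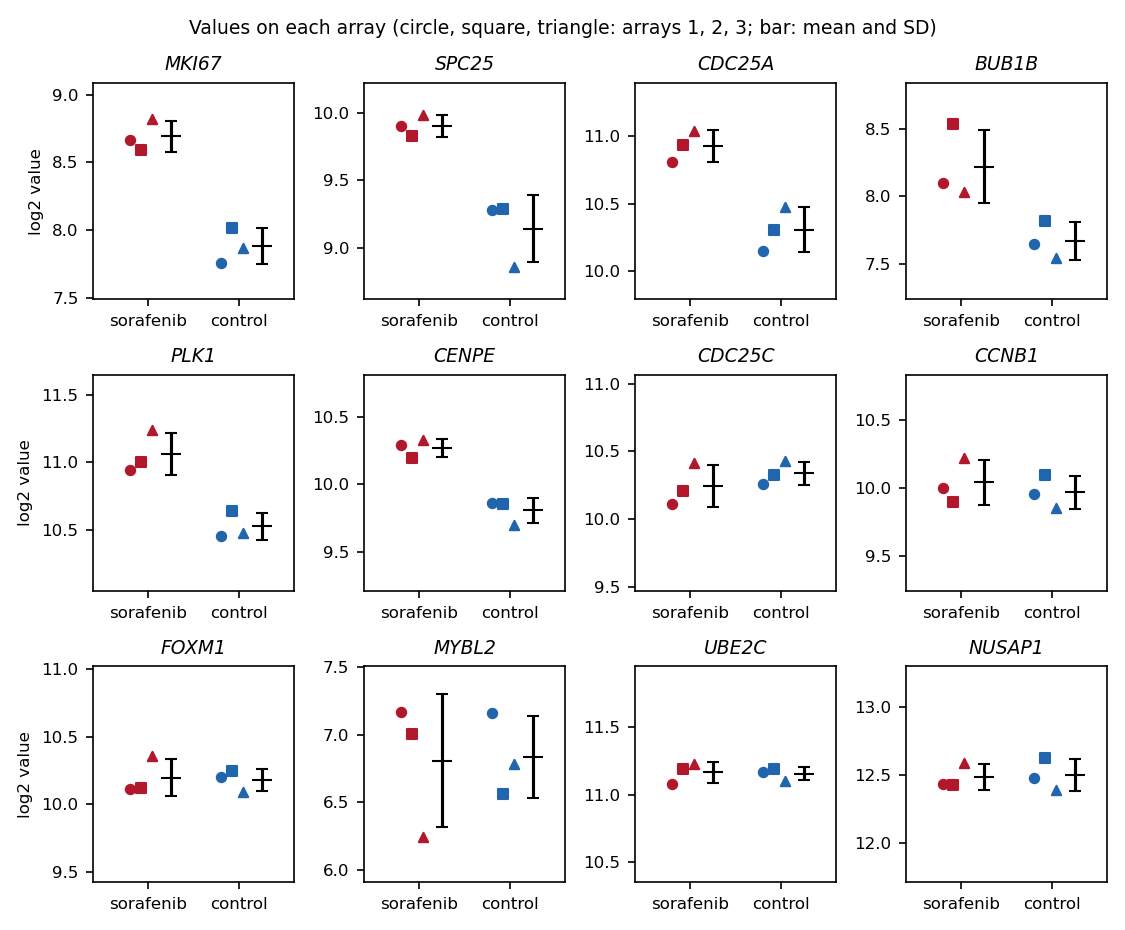
Log2 values on each array for 12 mitosis genes, with sorafenib in red, control in blue, and the mean and SD of 3 arrays as bars. Each vertical axis spans the same log2 range. In the upper row and for PLK1 and CENPE the groups lie apart, and for CDC25C, CCNB1, FOXM1, MYBL2, UBE2C and NUSAP1 they overlap.

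Further genes of the same machinery, 127 in all and listed by role, were read in the same fit. Of the 116 tested, 23 were higher and 4 lower, which is 19.8% higher against 11.0% of all genes, with a median difference of 0.20. These counts were 9 to 16 higher and 0 to 3 lower when any 1 array was left out, and 7 and 0 with median scaling. In those fits 5.64% to 8.51% and 5.55% of all genes were higher. Kinetochore genes outside the member list made up the largest part, with 8 of 27 higher and 1 lower. ZWILCH, a subunit of the complex that recruits dynein to kinetochores, had 7.35, 7.45 and 7.43 on the sorafenib arrays, against 6.68, 6.31 and 6.47 on the control arrays. It rose by 0.92 ± 0.11 (SE, n = 3; limma, adjusted p = 0.00243), but by 0.50 on the values the authors processed, 0.47 with no background correction and 0.58 when the correction added an offset of 50 in place of 16. HJURP, the chaperone that loads CENP-A, rose by 0.51 ± 0.10 (adjusted p = 0.0125). MIS18A, which prepares centromeres for that loading, fell by 0.25 (adjusted p = 0.0403), a call lost with any array left out (adjusted p = 0.0632 to 0.111), with dim probes kept (0.0714), after scaling by medians (0.435) and with the mean of its probes, where the difference was 0.01.

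Of 8 condensin subunits, which compact mitotic chromosomes, 3 were higher and 0 lower, which is 37.5% higher against 11.0% of all genes. NCAPG had 11.55, 11.55 and 11.66 on the sorafenib arrays, against 11.10, 11.13 and 11.16 on the control arrays, and rose by 0.46 ± 0.07 (SE, n = 3; limma, adjusted p = 0.00614). NCAPD3 rose by 0.40. Of 9 cohesin genes 1, or 11.1%, was higher, which is about the share of all genes. It was SGO1, the guardian of centromeric cohesion, which rose by 0.45, and the median of the 9 was 0.06. Of 13 APC/C genes 2, or 15.4%, were higher. FBXO5, which encodes the APC/C inhibitor EMI1, rose by 0.48 ± 0.09 (adjusted p = 0.00964), and the subunit ANAPC1 by 0.26. The median of that list was -0.05. Of 20 other spindle and centrosome genes 3, or 15%, were higher, with SPAG5 and TACC3 each at 0.38, and 1 lower, CDK5RAP2, which fell by 0.35. NCAPD3, SGO1, ANAPC1, SPAG5, TACC3 and CDK5RAP2 missed the threshold when 1 of 3 to 5 arrays was left out, each at an adjusted p between 0.0520 and 0.147, and after scaling by medians (adjusted p = 0.0680, 0.0926, 0.261, 0.137, 0.0918 and 0.197). With dim probes kept, ANAPC1, SPAG5 and TACC3 missed it too (adjusted p = 0.0837, 0.0502 and 0.0523), as did ANAPC1 with the mean of its probes (0.153) and SPAG5 with the variance model that follows the level (0.0637). The difference of SPAG5 was 0.21 without background correction and 0.23 on the authors' processed values.

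Of 13 other genes of G2 and mitosis 2, or 15.4%, were higher, against 11.0% of all genes. TRIP13, the ATPase that disarms the checkpoint, had 11.92, 12.09 and 12.11 on the sorafenib arrays, against 11.50, 11.38 and 11.30 on the control arrays. It rose by 0.65 ± 0.09 (SE, n = 3; limma, adjusted p = 0.0045). CCNF, which encodes cyclin F, rose by 0.49 (adjusted p = 0.0182), and missed the threshold without sorafenib replicate 2, control replicate 1 or control replicate 3 (adjusted p = 0.0512 to 0.0561). Among the MuvB and E2F genes 4 of 14, or 28.6%, were higher and 1 lower. E2F7, a repressor of E2F targets, rose by 0.47 ± 0.08 (adjusted p = 0.00745). LIN54, the MuvB subunit that touches the CHR, rose by 0.46 (adjusted p = 0.0309), and the MuvB subunit LIN37 fell by 0.37 (adjusted p = 0.0482). Both missed the threshold when any of 5 arrays was left out (adjusted p = 0.0591 to 0.0756 for LIN54 and 0.0870 to 0.120 for LIN37). With median scaling E2F7, LIN54 and LIN37 missed it (adjusted p = 0.0678, 0.0654 and 0.136). LIN37 also missed it on the values the authors processed (-0.22, adjusted p = 0.0532), with no background correction (-0.21, adjusted p = 0.0560), with dim probes kept (0.0769) and with the variance model that follows the level (0.0764).

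Of 12 brakes on the cell cycle, not all of which act at entry into mitosis, 0 were higher and 1 was lower. Over all genes 11.0% were higher and 14.3% lower. RBL2, which encodes p130, the pocket protein of the DREAM complex, had 11.16, 11.20 and 11.31 on the sorafenib arrays, against 11.50, 11.45 and 11.59 on the control arrays. It fell by 0.29 (SE 0.08, n = 3; limma, adjusted p = 0.0382), a call lost with every array but sorafenib replicate 3 left out in turn (adjusted p = 0.0702 to 0.110), with dim probes kept (0.0648) and after scaling by medians (0.323). WEE1, the kinase that holds CDK1 inactive, differed by 0.13 (adjusted p = 0.339). CDKN1A, which encodes the CDK inhibitor p21, had 13.76, 13.81 and 13.31 with sorafenib, against 13.93, 13.93 and 13.60 in control. Its difference was -0.20 (adjusted p = 0.408), and in both groups replicate 3 was the lowest.

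**Figure D5:**
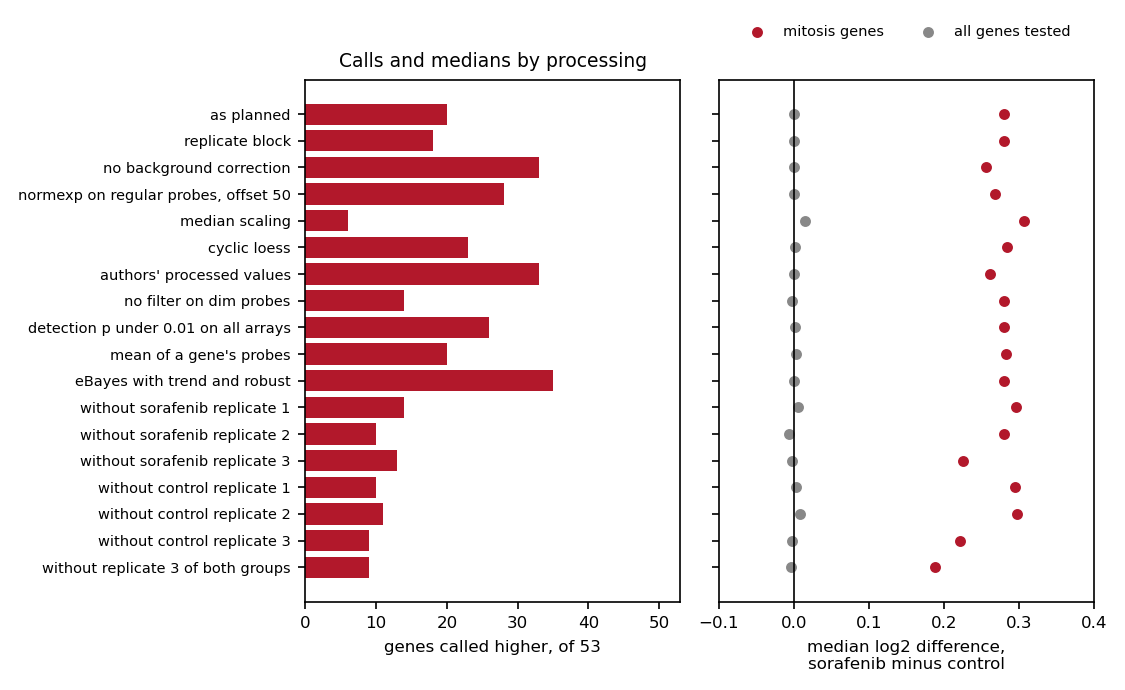
Left, number of the 53 mitosis genes called higher with sorafenib (bars) in the planned fit and 17 alternatives. Right, median log2 difference of sorafenib minus control over the mitosis genes (red) and over all genes tested (grey). The count ranges from 6 to 35, while the median of the mitosis genes stays between 0.19 and 0.31. The share of all genes higher, not drawn, ranges from 4.93% to 14.4%.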

How the data were processed

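Per the labels, RNA of HepG2 cells was hybridised to Illumina BeadChips, 3 arrays with sorafenib and 3 with DMSO. The authors deposited a probe intensity that is not normalized, and a detection p-value, for each of 47323 probes and each array, per the file headers. The authors' processed values are on a log2 scale and matched quantile-normalized log2 intensities within 5e-07.

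limma's neqc did the background correction (normexp, offset 16, with negative controls estimated through the detection p-values), quantile normalization and log2 step. The 20120 probes detected at p under 0.05 on 3 or more arrays were kept. Genes were named from the platform annotation, where 30113 probes had 1 symbol, 8 had several and 17202 had none. Of the first, 30074 matched a RefSeq gene, altering 0 symbols. Each gene was its kept probe with the highest mean. Sorafenib was compared with control by limma (lmFit and eBayes, two-sided, Benjamini-Hochberg over all 11542 genes), each error being the moderated SE.

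The members, gene lists and tests were chosen with earlier results of these data known. All members could be named. For each further list the rule took the called genes with the 2 largest changes, 1 called the other way, and always CDKN1A and WEE1. Arrays of equal number deviated together from their group means (correlations of 0.304, 0.296 and 0.416), above the limit of 0.1. The numbers were therefore read as pairs, from these data alone, but the planned fit had no replicate block. Its p-values, SEs and intervals are unpaired. One alternative added the replicate number as a block. The others were the background correction, normalization, filter, probe summary and variance model named in the closing section, and each array left out. On simulated data for sorafenib against control (11542 genes, 200 changed, 10 draws) log2 changes of 0.5 were recovered for 46.2% of genes and changes of 1 for 80.0%, while unchanged genes made up 5.23% of calls. The simulation changed far fewer genes than the 2921 called here and drew the noise of each gene and array independently. These rates therefore need not hold for the real arrays. R 4.3.3, limma 3.58.1, statmod 1.5.0, Python 3.11.15 and matplotlib 3.10.9 were used.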

Additional observations from a re-analysis of the deposited data

How the results depend on the processing

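The median difference of the 53 mitosis genes kept its direction in all 17 alternative fits. It lay between 0.22 and 0.30 when 1 array was left out, and was 0.19 without replicate 3 of both groups, added after the values were seen. The count of members higher, 20 as planned, was 33 without background correction, 6 with median scaling, 33 on the authors' processed values, 35 with eBayes with trend and robust, 9 to 14 when 1 array was left out and 9 without replicate 3 of both groups. It was 28 with a normexp correction fitted to regular probes (offset 50), 23 with cyclic loess, 14 with no filter on dim probes, 26 with detection p under 0.01 on all arrays and 20 with the mean of a gene's probes. Over these fits the share of all genes higher ran from 4.93% with no filter to 14.4% with detection p under 0.01 on all arrays. With probes counted one by one, 21 of 78 were higher and 0 lower, where 7.27% of all 20120 probes were higher. The count of members lower was 0 throughout. Blocking on the replicate number, which uses the pairing, gave 18 members higher, and 31 other mitosis genes higher and 5 lower. In that fit 1664 of all 11542 genes, or 14.4%, were higher and 2015 lower, which makes 3679 calls in either direction. That fit ended the calls of BIRC5 and PRC1 and no other call among the members.

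The count of other mitosis genes higher, 23 as planned, was 38 without background correction, 7 with median scaling, 37 on the authors' processed values, 37 with trend and robust, 9 to 16 when 1 array was left out and 12 without replicate 3 of both groups. The count lower, 4 as planned, was 0 with median scaling, 1 with no filter, 0 to 3 when 1 array was left out and 0 without replicate 3 of both groups. Over all genes, 2921 passed as planned, 1532 with median scaling and 1711 to 2392 when 1 array was left out. The cause of these shifts was not tested.

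Among the named genes, signs turned for 7 members, all with differences near 0, and for MIS18A. CCNB1 ranged from -0.018 to 0.14 when 1 array was left out and was -0.074 without replicate 3 of both groups. TTK ranged from -0.011 to 0.16, UBE2C from -0.019 to 0.055 and -0.047 without replicate 3, ESPL1 from -0.026 to 0.13 and -0.015, FOXM1 from -0.060 to 0.059 and -0.11, and MYBL2 from -0.21 to 0.25 and 0.23. NUSAP1 ranged from -0.069 to 0.050 and was -0.12 without replicate 3, and it was 0.027 with median scaling and 0.024 with the mean of its probes. MIS18A, which fell in the planned fit, was at 0.0052 with that mean. The 95% intervals, from a median SE of 0.09, limit what 3 arrays per group could detect.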
